A study of Rattus norvegicus with 2 samples.

Results

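Prostaglandin E2 (PGE2) is made from arachidonic acid in consecutive steps. The cyclooxygenases Ptgs1 and Ptgs2 form prostaglandin H2, and PGE synthases turn that intermediate into PGE2. Hpgd, 15-hydroxyprostaglandin dehydrogenase, inactivates PGE2, and cells sense it through EP receptors, of which EP2 and EP4 raise cyclic AMP, EP1 mobilises calcium and EP3 mostly lowers cyclic AMP. In the brain the pathway is known for fever and for inflammatory signalling of glia. The genes described here are the 10 rows, of 17049 in the deposited expression table, whose symbols name the cyclooxygenases (Ptgs1, Ptgs2), the prostaglandin synthases (Ptges, Ptges2, Ptges3, Ptgds), Hpgd and the EP receptors (Ptger1, Ptger2, Ptger4). The set was chosen by pathway role, with the read ratios of some members between these 2 libraries already known, so its differences between the libraries are a description and no test of the pathway.

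The RNA came from primary oligodendrocyte precursor cells (OPCs), dividing glia that can become myelinating oligodendrocytes, taken from wild-type adult rat brain and grown in OGM medium at 37 °C under 5% CO2. One culture was given amyloid-β (Aβ), the aggregating peptide of Alzheimer's disease, at 1 µM for 2 days, and the other was labelled as given the solvent DMSO. The protocol text of both samples names the Aβ exposure, so the control rests on its treatment label. Each group had 1 library, so there is no replicate check and no p-value, and each 95% interval below covers counting error only. The libraries held 15704932 estimated reads with Aβ and 15663751 in the control. Levels are given in TPM, which corrects for gene length and library total. A read ratio divides the share of all reads that a gene had with Aβ by its share in the control. By markers, Olig2 was at 335.79 and 374.90 TPM and Pdgfra at 23.18 and 24.58 TPM in the Aβ and control libraries, but Sox10, another OPC factor, reached only 0.84 and 1.22 TPM. Of 7 measured OPC markers the counting interval of the read ratio lay below 1 for 4 and above 1 for 1, beside 12.5% and 12% of all genes. The 4 ratios were near 1, at 0.908 for Olig1, 0.890 for Olig2, 0.952 for Ptprz1 and 0.931 for Pdgfra, whose interval reached 0.999. Olig1, Olig2 and Ptprz1 had 17440 reads or more in both libraries together, where counting intervals are narrow. The marker above 1 was Cspg4, the proteoglycan NG2. It was at 6.65 TPM with Aβ against 3.70 TPM in the control (read ratio 1.78, 1.54 to 2.05). The astrocyte genes Gfap (328.46 and 367.84 TPM) and Slc1a3 (1013 and 987 TPM) were high in both libraries, beside the OPC markers. In bulk RNA of this kind, fewer cells of a type and less RNA per cell cannot be told apart.

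The promoters of the 3 members that were higher with Aβ beyond counting error, Ptgs2, Ptges and Ptger2, are shown with that of Ptgs1, the other cyclooxygenase, whose interval holds 1. Each is the 250 bases before the RefSeq start in build GRCr8, whereas the reads were aligned to Rnor_6.0. Capitals mark matches on either strand to binding letters of known factors. These were TTNNGCAA for the C/EBP factors and GCGNGGGCG for the Egr factors. For the E-box, bound by factors such as Usf1, the letters were CACGTG. The cyclic AMP response element was searched as TGACGTCA. For the AP-1 factors the search used TGANTCA. The TATA box was searched as the letters TATAAA.
Ptgs2, chr13:64713813-64714062, plus strand: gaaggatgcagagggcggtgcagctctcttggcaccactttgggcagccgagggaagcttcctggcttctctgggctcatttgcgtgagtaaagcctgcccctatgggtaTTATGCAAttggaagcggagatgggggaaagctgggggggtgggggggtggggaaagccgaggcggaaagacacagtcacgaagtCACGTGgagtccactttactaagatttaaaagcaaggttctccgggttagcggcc
Ptges, chr3:34586988-34587237, minus strand: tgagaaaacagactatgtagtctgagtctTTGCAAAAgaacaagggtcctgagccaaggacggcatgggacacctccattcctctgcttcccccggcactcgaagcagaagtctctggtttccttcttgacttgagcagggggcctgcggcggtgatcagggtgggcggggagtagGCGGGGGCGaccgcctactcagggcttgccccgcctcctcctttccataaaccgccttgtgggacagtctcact
Ptger2, chr15:20696796-20697045, plus strand: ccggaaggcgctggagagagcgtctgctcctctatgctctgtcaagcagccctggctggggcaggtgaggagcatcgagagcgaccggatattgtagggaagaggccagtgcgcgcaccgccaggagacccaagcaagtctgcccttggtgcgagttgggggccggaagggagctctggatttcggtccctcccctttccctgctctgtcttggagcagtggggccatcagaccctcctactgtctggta
Ptgs1, chr3:39981169-39981418, plus strand: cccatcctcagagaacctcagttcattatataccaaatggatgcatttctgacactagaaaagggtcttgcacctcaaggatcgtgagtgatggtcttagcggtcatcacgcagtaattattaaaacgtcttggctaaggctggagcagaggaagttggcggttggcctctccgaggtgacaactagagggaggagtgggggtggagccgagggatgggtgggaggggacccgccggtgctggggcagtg

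Promoter windows were found for 9 of the 10 members, all but Ptges2. The Ptgs2 window held the C/EBP letters as TTATGCAA, from 140 to 133 bases before the start, and the E-box from 55 to 50 bases before it. The C/EBP letters were in 9.22% and the E-box in 5.59% of 33465 RefSeq windows of this length. The Ptges window held the Egr letters as GCGGGGGCG from 74 to 66 bases before the start, a match present in 4.29% of all windows. It also held the C/EBP letters as TTGCAAAA from 221 to 214 bases before the start. No other member window held the C/EBP, E-box or Egr letters, and the AP-1, cyclic AMP response element and TATA box letters were in none of the 9, against 6.34%, 1.59% and 12.9% of all windows. The GC box GGGCGG, not in capitals, was in 6 of the 9 and in 30.5% of all windows, and does not overlap the Egr match of Ptges. A match describes letters and is not evidence of binding.

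The cyclooxygenases differed from each other. Ptgs2, the inducible enzyme, had 183 reads with Aβ against 76 in the control, and 11.61 TPM with Aβ against 4.82 TPM in the control. Its read ratio was 2.40 (95% interval 1.83 to 3.18). Ptgs1, the constitutive enzyme, had 40 reads with Aβ and 42 in the control, or 1.54 and 1.61 TPM, a ratio of 0.950 (0.600 to 1.50). The interval of Ptgs1 runs from lower to higher and does not reach the interval of Ptgs2. Summed, cyclooxygenase transcripts stood at 13.15 TPM with Aβ against 6.43 TPM in the control, and Ptgs2 made up 88.3% of that sum with Aβ against 75.0% in the control. Of the reads of both genes, 82.1% (exact Clopper-Pearson interval 76.4% to 86.9%) were from Ptgs2 with Aβ, against 64.4% (55.1% to 73.0%) in the control. Ptgs2 was thus the more abundant cyclooxygenase per length in both libraries, and its share was greater with Aβ. These shares were computed after the values were seen.

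**Figure D1:**
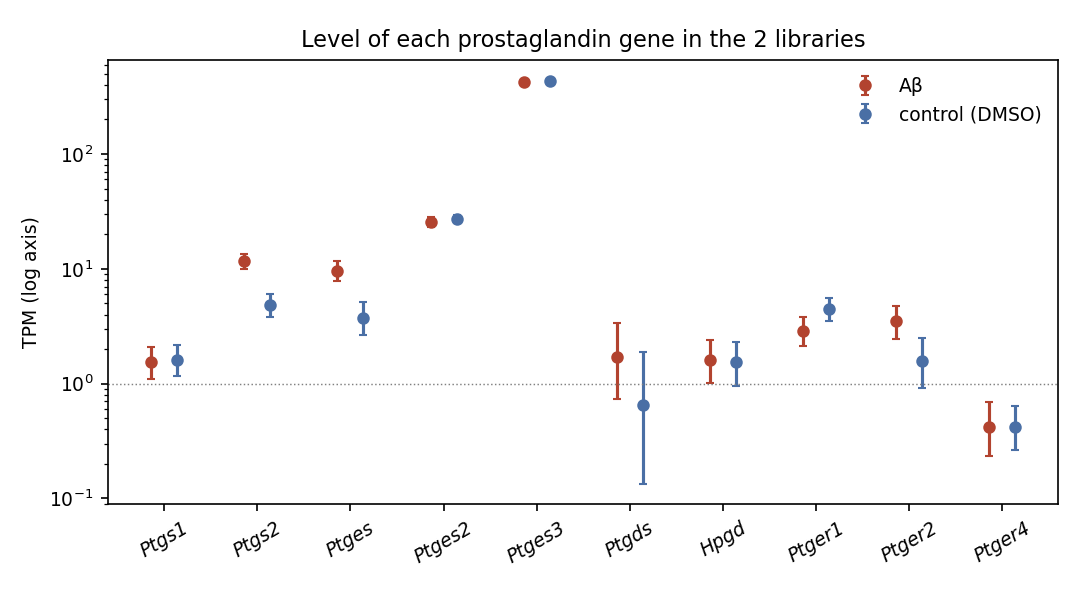
Level of each of the 10 genes in TPM on a log axis, in the Aβ library (red, left of each pair) and the control library (blue, right), 1 library each; bars are 95% Poisson intervals of the reads and the dotted line is 1 TPM. Ptgs2, Ptges and Ptger2 sit higher with Aβ, Ptger1 sits lower, and Ptges3 is far above the rest in both libraries.

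The PGE synthases also differed. Ptges, the membrane enzyme mPGES-1 that is known to be induced together with Ptgs2, had 95 reads with Aβ against 37 in the control. Its level was 9.60 TPM with Aβ against 3.76 TPM in the control, and its read ratio 2.56 (1.73 to 3.85). Ptges2, a membrane-associated PGE synthase, had 465 and 494 reads in the Aβ and control libraries, or 25.61 and 27.16 TPM, and a ratio of 0.939 (0.825 to 1.07). Ptges3, the cytosolic enzyme that is also the Hsp90 cochaperone p23, was at 422.74 TPM with Aβ against 428.71 TPM in the control, with a ratio of 0.984 (0.950 to 1.02). The intervals of Ptges2 and Ptges3 hold 1 and lie below that of Ptges. Ptges made up 2.10% of the summed PGE synthase TPM with Aβ and 0.818% in the control, since Ptges3 held over 92% in both (92.3% and 93.3%). The reads of all PGE synthases together were therefore at a ratio of 0.990 (0.956 to 1.02).

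Ptges3 was the only member with reads that were not whole, 5982.24 with Aβ against 6062.34 in the control. The gene Ptges3l1 had 424.76 and 402.66 reads in the same libraries. The sums, 6407 with Aβ and 6465 in the control, were whole to within 0.015 reads, and no other gene with divided reads completed both values. Summed, they gave a ratio of 0.988 (0.955 to 1.02), so the division does not move the value of Ptges3 beyond counting error.

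Ptgds, the lipocalin-type enzyme that makes prostaglandin D2 and is a known product of meninges and mature oligodendrocytes, rested on 8 reads with Aβ and 3 in the control. At 1.70 TPM with Aβ against 0.65 TPM in the control its read ratio was 2.66, with an interval from 0.638 to 15.6, so no difference was detectable at this depth. Hpgd had 23 reads with Aβ and 22 in the control, or 1.60 and 1.53 TPM, a ratio of 1.04 (0.556 to 1.96). That interval is wide enough to hold a near 2-fold change either way. Marker genes of meningeal and other fibroblasts summed to 5.36 TPM with Aβ against 8.77 TPM in the control over 7 listed genes, with Lum not in the table. The interval lay above 1 for 0 and below 1 for 2 of the 3 measured, beside 12% and 12.5% of all genes. Those were the collagen genes Col1a1, with 26 reads with Aβ against 61 in the control (0.425, 0.258 to 0.683), and Col1a2. On divided reads, Col1a2 was at 0.361 (0.257 to 0.509). Col1a1 reached 1 TPM only in the control, at 1.05 TPM against 0.45 TPM with Aβ. Marker genes of myelinating oligodendrocytes summed to 211 TPM with Aβ against 223 TPM in the control over 8 genes, of which Cnp alone gave 169.37 and 178.20 TPM. The mature markers Mag (1.30 and 1.21 TPM), Cldn11 (2.36 and 3.60), Opalin (0.36 and 0.56) and Mobp (0.06 and 0.12) were low in the Aβ and control libraries alike. Their part in the Ptgds value was not tested.

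**Figure D2:**
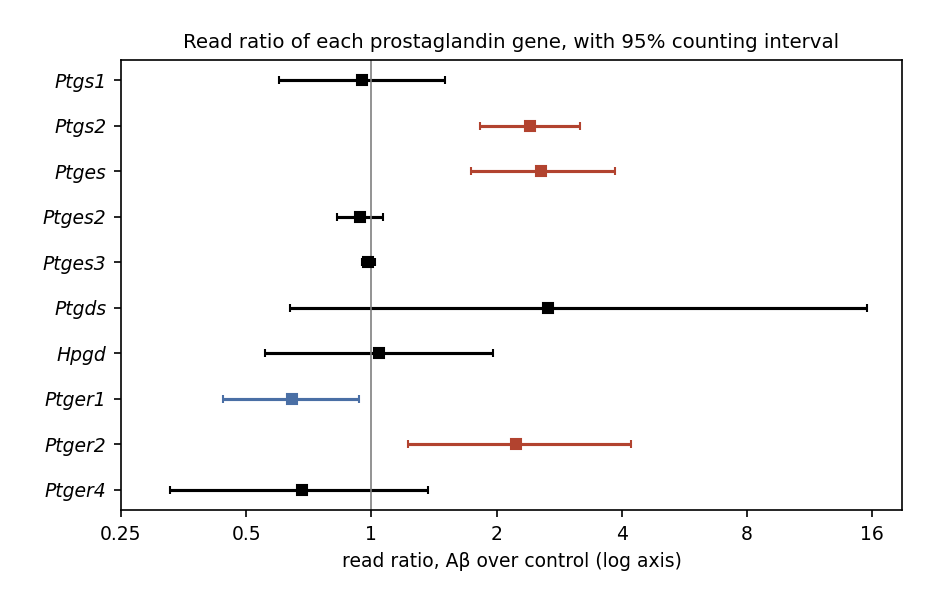
Read ratio of each gene, Aβ over control, on a log axis with exact 95% counting intervals; squares are the ratios and the vertical line is 1. Intervals lie above 1 for Ptgs2, Ptges and Ptger2 (red) and below 1 for Ptger1 (blue), and hold 1 for the other 6 (black), of which Ptgds spans 0.638 to 15.6.

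The EP receptors went in both directions. Ptger2, which encodes EP2, had 38 reads with Aβ and 17 in the control, or 3.48 TPM with Aβ against 1.56 TPM in the control, a ratio of 2.23 (1.23 to 4.21). Ptger1, which encodes EP1, had 49 reads with Aβ against 76 in the control, or 2.90 TPM with Aβ against 4.43 TPM in the control, a ratio of 0.643 (0.440 to 0.933). Their intervals do not meet. Ptger4, which encodes EP4, had 15 reads with Aβ and 22 in the control, a ratio of 0.680 (0.328 to 1.37). Its deposited level was nevertheless 0.42 TPM in both libraries. For Ptger4 the gene length implied by reads and FPKM was 0.680 times as long with Aβ as in the control, while for the other 9 members this factor lay between 0.993 and 1.04. Ptger4 was also the only member below 1 TPM in both libraries. Ptger3, the gene of EP3 and not part of the set, had 50 reads with Aβ and 35 in the control, a ratio of 1.42 (0.907 to 2.26).

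All 4 EP receptor genes together had 152 reads with Aβ and 150 in the control, a ratio of 1.01 (0.801 to 1.28), while their proportions differed. Ptger2 held 36.8% of EP receptor TPM with Aβ and 19.0% in the control, and Ptger1 held 30.7% with Aβ and 54.0% in the control. By reads the share of Ptger2 was 25% (18.3% to 32.7%) with Aβ against 11.3% (6.74% to 17.5%) in the control, and the intervals do not overlap. The share of Ptger1 was 32.2% (24.9% to 40.3%) with Aβ against 50.7% (42.4% to 58.9%) in the control, again without overlap. Ptger1 was the most abundant EP receptor transcript per length in the control library. In the Aβ library Ptger2, Ptger1 and Ptger3 lay between 2.66 and 3.48 TPM with overlapping counting intervals. The genes of the 2 receptors that raise cyclic AMP, Ptger2 and Ptger4, summed to 53 reads with Aβ and 39 in the control. Their ratio of 1.36 (0.880 to 2.11) is within counting error of equal. These sums and shares were also taken after the values were seen. In RefSeq, Ptger2, Ptger4 and, among the synthases, Ptges3 each overlap a long non-coding RNA gene on the opposite strand. Ptges2 overlaps one whose strand relative to it was not determined. Since strand-specific counting is not stated, reads of the 2 strands cannot be told apart at these genes.

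**Figure D3:**
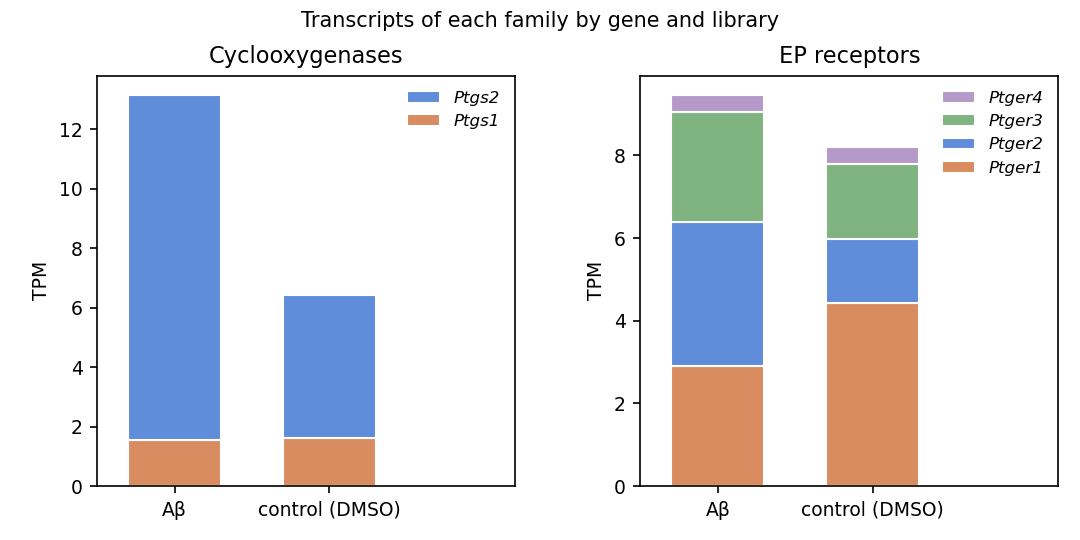
TPM of the cyclooxygenase genes (left panel) and the EP receptor genes (right panel), stacked by gene, in the Aβ library (left bar) and the control library (right bar), 1 library each and without error bars. The cyclooxygenase bars, of 13.15 TPM (Aβ) and 6.43 TPM (control), differ by Ptgs2, while the EP receptor bars, of 9.46 TPM (Aβ) and 8.21 TPM (control), differ mainly in their split between Ptger1 and Ptger2.

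Ordered by level in TPM, Ptges3 stood first and Ptges2 second in both libraries, apart from each other and from the rest beyond their Poisson intervals. With Aβ, Ptgs2 (interval 9.99 to 13.4 TPM) and Ptges (7.77 to 11.7) followed and did not differ beyond counting error. Next came Ptger2 (2.46 to 4.78) and Ptger1 (2.15 to 3.83), and then Ptgds, Hpgd and Ptgs1 between 1.54 and 1.70 TPM, with overlapping intervals in each group. The intervals of Ptgds (0.734 to 3.35) and Hpgd (1.01 to 2.40) also reach into that of Ptger1, and Ptger4 came last. In the control library Ptgs2 (3.80 to 6.03), Ptger1 (3.49 to 5.54) and Ptges (2.65 to 5.18) formed 1 overlapping group, followed by Ptgs1, Ptger2 and Hpgd between 1.53 and 1.61 TPM. Ptgds (0.65 TPM) and Ptger4 (0.42 TPM) came last there, with overlapping intervals, and the interval of Ptgds also reaches into those of the genes just before it. Ptges3 ranked 323 of 17049 genes by TPM with Aβ and 319 in the control, so it is among the abundant transcripts of these cells. Ptgs2 ranked 8488 with Aβ and 10464 in the control, and Ptges 9006 and 10920.

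Against all genes, 9 of the 10 members were at 1 TPM or more in at least 1 library. Ptgds was among these 9 only through its Aβ value. The counting interval lay above 1 for 3 of the 9 (Ptgs2, Ptges and Ptger2), where 12% of 12980 genes did so. It lay below 1 for 1 of the 9 (Ptger1), where 12.5% of those genes did so, and held 1 for 5. The read ratio was 2 or more for 4 of the 9 (Ptgs2, Ptges, Ptger2 and Ptgds), where 0.932% of those genes reached it, and 0.5 or less for 0, where 1.06% did. With a pseudocount of 1 on TPM or on CPM, 2 members, Ptgs2 and Ptges, were still at 2-fold or more. Since the set was proposed from this contrast, nothing is read from these counts. Among 10909 genes with whole reads and 50 or more reads in both libraries together, Ptges ranked 4, Ptgs2 5 and Ptger2 7 by ratio from the top, and Ptger1 ranked 98 from the bottom. The genes nearest in ratio to Ptgs2 among these were Nrn1 (2.26), Ptges and Cacng6 (2.58), and those nearest to Ptges were Cacng6, Chac1 (2.66) and Ptgs2. This likeness is in a single ratio over 2 libraries.

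**Figure D4:**
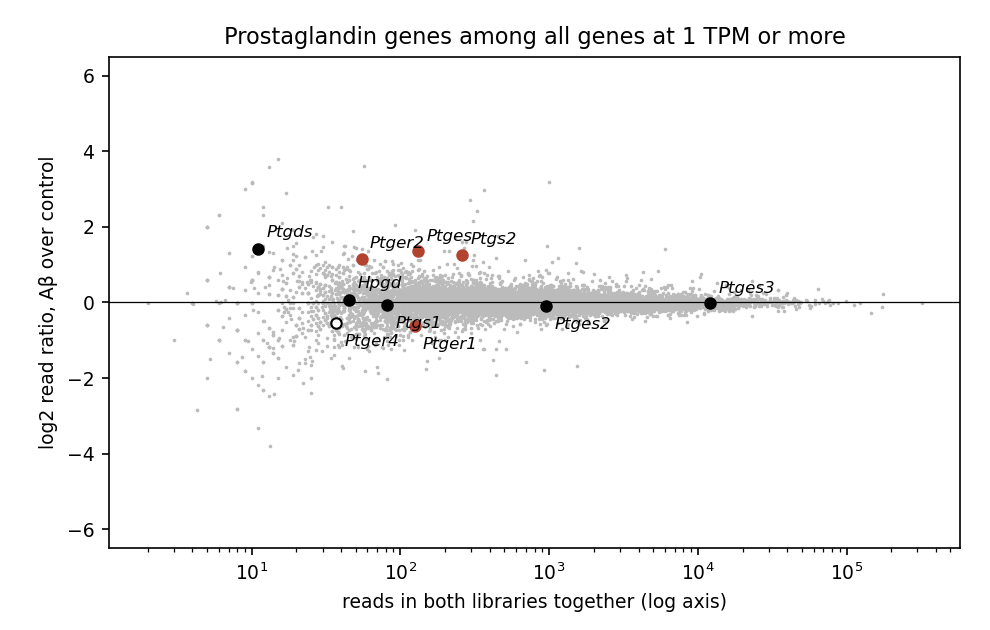
Log2 read ratio, Aβ over control, against reads in both libraries together (log axis) for all genes that reached 1 TPM in at least 1 library and had reads in both (grey; 1 gene lies outside the axis), with the 10 members marked: red where the counting interval excludes 1, black where it holds 1, and open for Ptger4, which is under 1 TPM. Ptges, Ptgs2 and Ptger2 lie near log2 1.36, 1.26 and 1.16, above the grey band at their depth, while Ptges2 and Ptges3 lie at its centre.

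The steps before the cyclooxygenases were near equal between the libraries. Of 13 measured genes in the arachidonate release list (20 listed, measured meaning that at least 1 library reached 1 TPM), 7 had a ratio above 1 and 6 below. The median log2 ratio was 0.01 beside 0.00 over all 12980 genes. The list holds storage as well as release genes, so its median is not of release alone. The interval lay above 1 for 2 of the 13 and below 1 for 0, beside 12% and 12.5% of all genes. Those 2 were Acsl4, which activates arachidonate for storage in phospholipids, with 2785 reads with Aβ and 2269 in the control (1.22, 1.16 to 1.29), and the phospholipase gene Pla2g4b, with 178 and 137 reads (1.30, 1.03 to 1.63). Pla2g4a, the cytosolic phospholipase that supplies cyclooxygenases, had 182 reads with Aβ and 176 in the control (1.03, 0.834 to 1.28). Mgll, which releases arachidonate by way of 2-arachidonoylglycerol, was at 1.14 (0.974 to 1.34), and Dagla at 0.956 (0.786 to 1.16).

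Export and further reduction of prostaglandins had 7 measured genes with a median log2 ratio of 0.00. The interval lay below 1 for 0 of them and above 1 for 1, Cbr1, beside 12.5% and 12% of all genes. Cbr1 was listed at 39.51 divided reads with Aβ against 0 in the control, so it counted as measured only through its Aβ value. Whether this Cbr1 difference reflects how shared reads were divided between genes was not tested. The exporter Abcc4 was at 0.942 (0.868 to 1.02), the reductases Ptgr1 at 0.757 (0.541 to 1.05) and Zadh2 at 1.06 (0.954 to 1.18), and the carbonyl reductase Cbr3 at 0.912 (0.732 to 1.14). Other prostanoid synthases had 0 of 4 measured genes with an interval off 1, beside 12% above 1 and 12.5% below 1 among all genes. Their median log2 ratio was -0.15. Tbxas1, thromboxane synthase, was at 52.10 TPM with Aβ against 50.79 TPM in the control (1.03, 0.931 to 1.13), and Hpgds, the haematopoietic prostaglandin D synthase, had 30 and 36 reads (0.831, 0.494 to 1.39). Akr1b1 was at 0.981 (0.924 to 1.04) and Fam213b at 0.825 (0.631 to 1.08). Of 6 further prostanoid receptor genes only Ptger3 reached 1 TPM, and the others, the receptors of prostaglandin D2, prostaglandin F2α, prostacyclin and thromboxane, had 10 reads or fewer in each library. Lipoxygenase and leukotriene genes, a parallel branch of arachidonate use, were listed together with Ephx2, which is outside that branch. Of 5 measured, 0 had an interval off 1, beside 12% above 1 and 12.5% below 1 among all genes. The median log2 ratio of this list was -0.23. In it Lta4h was at 1.02 (0.953 to 1.08), Ephx2 at 0.921 (0.678 to 1.25), Alox12 at 0.855 (0.507 to 1.43) and Alox5 at 0.760 (0.464 to 1.23).

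Most listed genes known to induce Ptgs2 and Ptges had a higher ratio with Aβ. Of 10, the interval lay above 1 for 7, where 12% of all 12980 genes did so, and below 1 for 1, where 12.5% did. The median log2 ratio was 0.40 beside 0.00 over all genes, and 0.34 over whole reads alone, which leaves out Tnf, 1 of the 7. Il1b, a classical inducer of both enzymes, had 2734 reads with Aβ and 1566 in the control, and Il1a 1049 and 588. Il6, a fever cytokine, had 213 and 97 reads, and Egr1, whose binding letters are in the Ptges window above, 983 and 708 (1.38, 1.26 to 1.53). The C/EBP factor Cebpb had 821 reads with Aβ and 648 in the control (1.26, 1.14 to 1.40). Cebpd, another C/EBP factor, had 1172 and 1104 reads (1.06, 0.974 to 1.15). The NF-κB subunit gene Nfkb1 had 1498 reads with Aβ and 1317 in the control (1.13, 1.05 to 1.22). Rela, another NF-κB subunit, had 1077 and 1063 (1.01, 0.928 to 1.10). The gene with an interval below 1 was the interleukin-1 receptor Il1r1, with 69 reads with Aβ and 98 in the control (0.702, 0.508 to 0.965). Tnf was listed at 76.02 divided reads with Aβ and 0 in the control, so it counted as measured only through its Aβ value. Whether this Tnf difference reflects how shared reads were divided between genes was not tested. Some of these genes were shown by earlier results of these libraries to be higher, so their direction is no independent evidence.

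**Figure D5:**
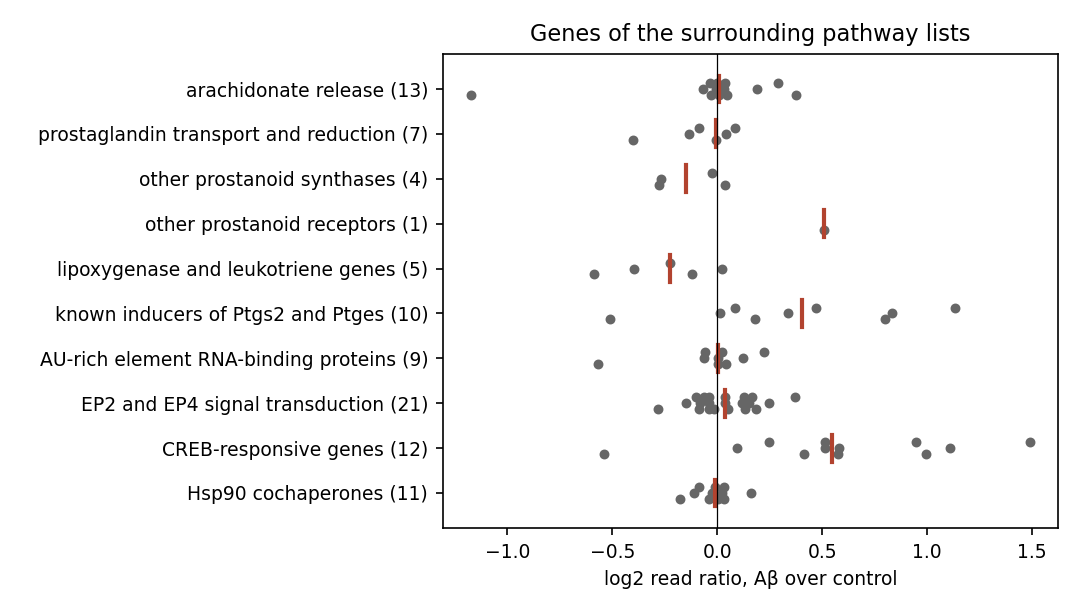
Log2 read ratio, Aβ over control, of each measured gene (dots) in 10 lists around PGE2, with the list median (red bar) and the number of measured genes in brackets; Tnf and Cbr1, at 0 reads in the control, are in the medians at a floor of 3 reads but not drawn. Medians are 0.40 for inducers and 0.55 for CREB-responsive genes and lie near 0 for arachidonate release, receptor signal transduction and Hsp90 cochaperones.

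Genes downstream of EP2 and EP4 were also listed. Of 12 CREB-responsive genes, which cyclic AMP is one of several signals to induce, the interval lay above 1 for 9 and below 1 for 1, beside 12% and 12.5% of all genes, with a median log2 ratio of 0.55. Nr4a1 had 719 reads with Aβ and 255 in the control, and Nr4a2 261 and 135. Bdnf, a neurotrophin, had 54 reads with Aβ and 25 in the control (2.15, 1.32 to 3.61), and the kinase gene Sik1 186 and 124 (1.50, 1.19 to 1.89). Bdnf counted as measured only through its Aβ value, 1.40 TPM against 0.69 TPM in the control. Ppargc1a was the gene below 1, with 122 reads with Aβ and 177 in the control (0.687, 0.541 to 0.871). The CREB-responsive list was also chosen with earlier results of these libraries known, so its counts are no independent evidence. A part of EP2 or cyclic AMP in these values was not tested. The receptors' own signal transduction genes were near equal, with a median log2 ratio of 0.03. The interval lay above 1 for 3 and below 1 for 2 of 21 measured, beside 12% and 12.5% of all genes. Gnas, which encodes the G protein subunit used by EP2 and EP4, was at 1.09 (1.03 to 1.16), the protein kinase A gene Prkacb, on divided reads, at 1.10 (1.04 to 1.15) and the adenylyl cyclase gene Adcy6 at 0.903 (0.839 to 0.973). Arrb1, a β-arrestin, was lower with Aβ at 1292 reads against 1568 in the control (0.822, 0.763 to 0.885), and the cyclic AMP phosphodiesterase Pde4d was higher at 624 against 548 (1.14, 1.01 to 1.28). Adcy9 was at 1.19 (0.931 to 1.52) and Prkar1b at 1.29 (0.930 to 1.80).

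RNA-binding proteins of AU-rich elements, which control the decay of Ptgs2 mRNA, had a median log2 ratio of 0.01. The interval lay above 1 for 1 and below 1 for 1 of 9, beside 12% and 12.5% of all genes. Those were Zfp36l1 (1.09, 1.01 to 1.17) and, on divided reads, Zfp36l2 (0.674, 0.483 to 0.920), while Zfp36, tristetraprolin, was at 1.17 (0.991 to 1.38) and Celf2 at 0.957 (0.907 to 1.01). Hsp90 and its cochaperones, the partners of Ptges3, had a median log2 ratio of -0.01. Their interval lay above 1 for 1 and below 1 for 3 of 11, beside 12% and 12.5% of all genes. Ppid was at 0.883 (0.830 to 0.940), Hsp90aa1, on divided reads, at 0.926 (0.909 to 0.943), Hsp90ab1 at 0.984 (0.971 to 0.998), Fkbp5 at 0.943 (0.881 to 1.01) and Stub1, on divided reads, at 1.12 (1.04 to 1.20).

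Microglia and macrophages are known sources of Ptgs1, Ptgs2, Il1b and Hpgds, so their markers were measured beside these values. All 12 markers had reads in both libraries. They summed to 293 TPM with Aβ against 340 TPM in the control, with an interval above 1 for 0 and below 1 for 3 of 11 measured, the complement genes C1qa and C1qb and Aif1. The defining genes P2ry12 (7 reads with Aβ and 14 in the control) and Tmem119 (39 and 45 reads) were low, whereas Csf1r had 1010 and 1070. Summed astrocyte markers were at 2122 TPM with Aβ against 2161 TPM in the control over 7 genes. For 4 of these 7 the interval lay below 1 (Gfap, Aqp4, Aldh1l1 and S100b) and for 2 above 1 (Slc1a3 and Gja1). All genes had 12.5% below 1 and 12% above 1. Endothelial markers summed to 4.67 TPM with Aβ against 4.46 TPM in the control over 5 genes, of which Flt1 alone gave 4.11 and 4.09 TPM. Neuron markers summed to 133 TPM with Aβ against 129 TPM in the control over 6 genes, of which Map2 alone gave 105.18 and 107.20 TPM. Their median log2 ratio was 0.21. Their interval lay above 1 for Snap25, with 149 reads with Aβ against 99 in the control (1.50, 1.16 to 1.96), and Rbfox3, with 39 against 21 (1.85, 1.06 to 3.31). It lay below 1 for Syt1, with 27 reads with Aβ against 55 in the control (0.490, 0.297 to 0.790). Rbfox3 reached 1 TPM only with Aβ (0.92 TPM in the control), and Syt1 only in the control (0.61 TPM with Aβ). The part of these cell types in the values of the inducers, the CREB-responsive genes and Bdnf was not tested. Which cells carried the prostaglandin transcripts was not tested.

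The authors' deposited table of gene ontology terms for genes higher with Aβ named Ptgs2 in 72, Ptges in 20 and Ptger2 in 3 of its 282 terms, and none of the other 7 members. In the authors' deposited table the term prostaglandin transport held 7 of their 391 genes against 20 of 13666 in their background, an enrichment of 12.2-fold with an adjusted p-value of 1.69e-04. Those 7 genes were Ptges, Ptgs2, Il1a, Il1b, Nos2, Acsl4 and Slco4a1, so 2 of them were members. Fever generation in the authors' deposited table held 6 genes, Ptges, Ptgs2, Tnf, Il1a, Il1b and Cnr1, against 13 in their background (16.1-fold, adjusted p-value 1.62e-04). No label states how those 391 genes were picked, and the terms rest on the same 2 libraries.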

How the data were processed

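Alignment was by Bowtie2 against the Rnor_6.0 build, as the submitters' processing notes list them; no source used here names a counter or an annotation. The authors deposited an estimated count of reads, TPM and FPKM for each gene in 2 libraries. The columns of each of these measures were used for both libraries. The authors' deposited enrichment table gives the ratio of fold enrichment, p-values and a count of genes per term. From the estimated counts, read ratios were computed over all genes from shares of the library total. Their 95% intervals are exact (Clopper-Pearson, conditional on a gene's reads in both libraries, rounded); FPKM was used only for implied gene lengths. Without molecular identifiers, reads are not independent molecules, and the intervals cover counting error only. The limit set by a count of 0 is 3 reads, which is 0.191 CPM (Aβ) and 0.192 CPM (control). The 12980 genes that reached 1 TPM in at least 1 library formed the background for counts. No test was made, since each group had 1 library. edgeR 4.0.16 gave TMM factors as an alternative scale. The ratio step was run on simulated Poisson counts, the model its intervals assume. This checks the computation and not differences between cultures.

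All 10 members are named. In each of 10 pathway lists the 4 measured genes with the largest absolute log2 ratio at 50 or more reads are named, as are the 3 genes nearest in ratio to Ptgs2 and Ptges. Pla2g4a, Egr1, Cebpb, Cebpd, Nfkb1, Rela, Il1r1, Ppargc1a, Gnas, Prkacb, Adcy6, Hsp90ab1 and Cbr1 and the markers shown were chosen after their values were seen. Members and lists were chosen with earlier results of these data known. Promoters are RefSeq GRCr8, matched by gene number for 9 of 10 members.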

Additional observations from a re-analysis of the deposited data

How the results depend on the processing

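All 10 member ratios stayed within their counting intervals under every alternative run: TMM and median-of-ratios scaling, TPM with a pseudocount of 1 or 0.1, CPM with a pseudocount of 1 and, chosen after seeing the data, the sum of Ptges3 and Ptges3l1. Scaling moved no log2 ratio by more than 0.004, and CPM with a pseudocount of 1 moved Ptgds by 1.07, from 8 and 3 reads. Members at 2-fold or more numbered 4, against 2 (Ptgs2 and Ptges) with a pseudocount of 1: Ptger2 was then at log2 0.81 by TPM and 0.71 by CPM, and Ptgds at 0.71 and 0.34. By TPM Ptger4 was at 0. The list medians stayed within their order-statistic intervals or, for Ptger3, alone in its list, within its counting interval. For the lists of 4 and 5 measured genes the interval was their full range, so that check could hardly fail. The background counts depended on the filter. Genes with a ratio of 2 or more numbered 121, against 800 with any gene at 1 read, 54 at 50 or more reads, 65 with whole reads only and 65 by TPM with a pseudocount of 1. Genes at 0.5 or less numbered 138, against 1023, 42, 78 and 64 under the same settings. The cause was not tested. No replicate could be left out, since each group had 1 library. No paired analysis was possible because each group had 1 library and the labels give no replicate numbers. Depth limits Ptgds, Hpgd and Ptger4, which had under 50 reads in both libraries together.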
